A study of Mus musculus with 28 samples.

Results

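The comparison set cells pretreated with the p38 inhibitor SB203580 against DMSO control cells, all harvested on day 5 of induction. Its members were taken from the sample labels alone and are 4 of the 28 RNA-seq libraries of the series, 2 per group. Both groups were mouse embryonic fibroblasts (MEFs) labelled WT for genotype, and by the study's methods they were OG2 MEFs, which carry an Oct4-GFP reporter allele, from embryos of either sex. All were infected with pMXs retroviruses for mouse Oct4, Klf4 and Sox2 (OKS) and then kept in the induction medium iCD1. The pretreated cells, called pre-p38i here, had SB203580 in culture before the change to iCD1, while the controls, labelled ctr, are the DMSO condition of the study's methods. The other libraries are MEFs with and without the inhibitor, both conditions on days 1, 3 and 7, and cells that had the inhibitor during induction. The sources used here describe no sort of cells before sequencing. The labels do not say that the 2 libraries of a group came from separate cultures, so p-values measure the spread between these libraries, which may be technical.

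Reprogramming of fibroblasts by OKS begins with faster division and a mesenchymal-to-epithelial transition (MET), in which cells lose matrix, contractile and mesenchymal genes and take up cadherin and keratin genes of epithelia. The endogenous pluripotency network, led by Nanog, is switched on later and in a minority of cells. The p38 kinases are stress-activated MAP kinases that act on transcription factors, on the stability of inflammatory mRNAs and on the cell cycle.

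The table holds 1 whole number per gene and library, read as TPM, a length-corrected share of transcripts, rounded down, so that low values are coarse. The 4 libraries summed to between 991287 and 991454 and held between 14033 and 14170 genes at a value of at least 1. TPM keeps no trace of read numbers, so the depth is unknown. Genes of the mitochondrial genome took 4.83% and 4.54% of the total in DMSO and 3.74% and 3.73% in pre-p38i. Differences were tested on log2(value + 1) with limma over the 13230 genes whose mean reached 1, and a gene is called where its Benjamini-Hochberg adjusted p-value was under 0.05. On this scale the change of low genes is understated. For 1 gene alone, the smallest p that exact permutation of the 4 libraries allows is 0.333, and each p given here therefore draws on variances that limma pools over genes and over all 14 groups.

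Pretreatment was followed on day 5 by higher values of cell division, DNA replication, epithelial and MHC class I genes and by lower values of collagen, matrix, protease, macrophage and lysosome genes. Of the 13230 genes tested, 3387 (25.6%) were called, 1893 (14.3%) higher in pre-p38i and 1494 (11.3%) lower. The median log2 fold change of all genes was 0.04. Large changes were rarer and more often falls, with 176 genes (1.33%) higher and 272 (2.06%) lower by at least 1 on the log2 scale. Each list below is described by its called members and its median beside these values. Without pre-p38i library 1 the genes called higher were 1203. In a fit of the 4 libraries alone, where the spread of few libraries is estimated, 1254 genes were called.

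**Figure D1:**
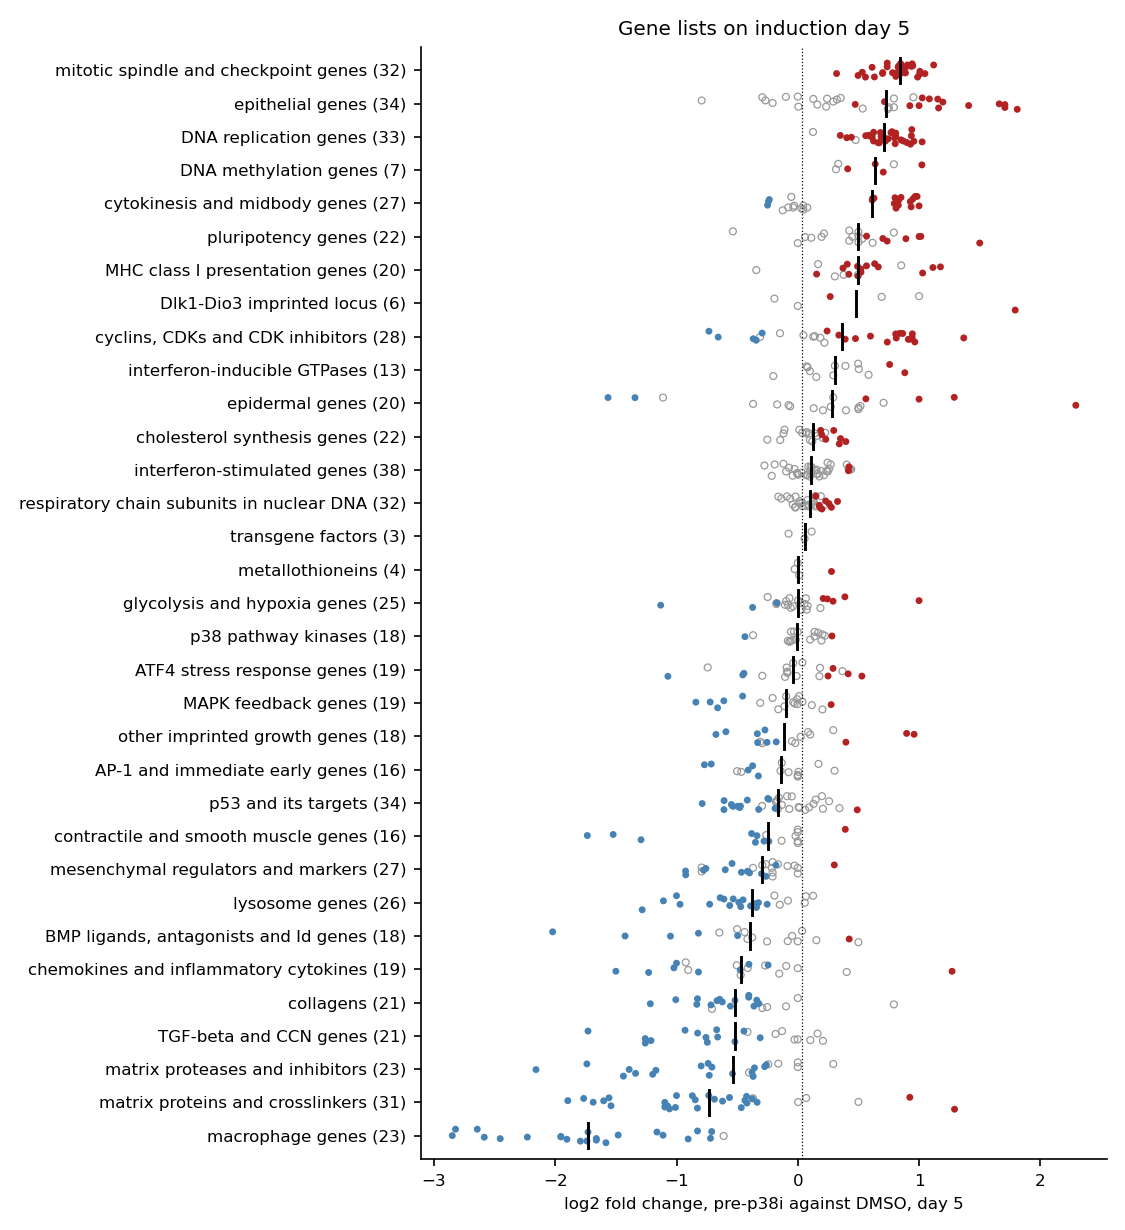
Log2 fold change on day 5 (horizontal axis, pre-p38i against DMSO) of each tested member of 33 gene lists, ordered by their median (black bar). Filled points are called by limma, red higher and blue lower, open points are not called, and the dotted line is the median of all genes. Mitotic genes sit highest with a median of 0.84 and macrophage genes lowest with -1.73.

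The cells still carried fibroblast transcripts. The summed value of 10 fibroblast markers was 2375 and 2680 in DMSO against 1703 and 1567 in pre-p38i, and no marker was at 0 in both libraries of a group. Most of this sum came from Col1a1, Col1a2 and Col3a1, which are also among the collagens below. In bulk libraries, fewer cells of a type and less RNA per cell cannot be told apart. The 10 skeletal muscle markers were at 0 in all 4 libraries, and 8 erythroid markers summed to 2 and 2 against 4 and 5. Endothelial markers summed to 63 and 68 against 71 and 71, with 4 of 10 at 0 in each group. T and NK cell markers summed to 62 and 54 against 50 and 54, adipocyte markers to 157 and 172 against 84 and 74, neuron and glia markers to 262 and 253 against 261 and 259, extraembryonic endoderm markers to 57 and 60 against 62 and 62, and trophoblast markers to 3 and 3 against 5 and 5. At 0 in both libraries of each group were 7 of 10 T and NK cell and 5 of 8 adipocyte markers. The same held for 6 of 10 extraembryonic endoderm and 7 of 9 trophoblast markers. Of 11 neuron and glia markers, 6 were at 0 in both DMSO libraries and 7 in both pre-p38i libraries. The T and NK cell sum was 0 and 0 in untreated MEFs and on DMSO day 1. Whether such cells were present, and their part in the results, was not tested.

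Of the 3 reprogramming factors 0 were called. Pou5f1, which encodes Oct4, was at 2944 and 3117 in DMSO against 2886 and 2862 in pre-p38i (log2 fold change -0.08, standard error 0.05, adjusted p = 0.240). Sox2 was at 942 and 1018 against 1059 and 1061 (0.11, standard error 0.18, adjusted p = 0.698). Klf4 was at 755 and 801 against 834 and 784 (0.06, standard error 0.08, adjusted p = 0.674). The table has 1 value per gene, so the retroviral and the endogenous transcripts are summed in it.

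All 32 mitotic spindle and checkpoint genes tested were called higher in pre-p38i, with log2 fold changes between 0.32 and 1.12 and a median of 0.84, against 14.3% of all genes. With only the 4 libraries in the fit, 23 of the 32 were called. Spc24, a subunit of the NDC80 complex that holds microtubules at the kinetochore, was at 21 and 24 in DMSO against 51 and 49 in pre-p38i (1.12, standard error 0.14, adjusted p = 6.35e-06). Kif11 encodes the kinesin that pushes the spindle poles apart and was at 18 and 22 against 41 and 41 (1.01, adjusted p = 6.61e-06). The kinesin Kif2c, which takes microtubules apart at centromeres, was at 21 and 21 against 45 and 44. Cenpf, a protein of the outer kinetochore, was at 5 and 6 against 12 and 12 (1.00, adjusted p = 0.000173). These genes were named as the called members with the largest log2 fold changes, so that wide gaps between their groups follow from the choice. The smallest change of the list was in Bub3, a part of the spindle checkpoint, at 99 and 105 against 128 and 127.

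The DNA replication genes moved in the same direction, and 31 of 33 were called higher (19 with only the 4 libraries in the fit), with a median of 0.71. Cdc45, which completes the replicative helicase, was at 12 and 13 in DMSO against 28 and 25 in pre-p38i (1.03, standard error 0.15, adjusted p = 3.55e-05). The helicase genes Mcm2 to Mcm7 all rose, from Mcm4 with 51 and 48 against 83 and 75 to Mcm5 with 70 and 63 against 115 and 119. Genes for making nucleotides rose as well. Tyms, thymidylate synthase, was at 47 and 44 against 85 and 91 (0.94, adjusted p = 7.14e-06), and the ribonucleotide reductase subunit Rrm2 at 147 and 141 against 268 and 253. Tyms shares near-identical sequence with other transcribed genes. Pcna, the sliding clamp of the polymerases, was at 200 and 200 against 309 and 304. The members not called were Gins2 at 23 and 19 against 29 and 30 and Gins4 at 42 and 44 against 46 and 48.

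Genes of late division are known to be controlled through a CHR element and CCAAT boxes before their start, and replication genes through E2F sites, so the windows of 250 bases before the start are shown for members of both lists. They are RefSeq sequences of build GRCm38.p6, read 5′ to 3′ on the strand of the gene. Capitals mark a CHR (TTTGAA) or a CCAAT box (CCAAT), on either strand, and the E2F letters TTCCCGC are in none of the 3 windows. Kif11 is on the plus strand of chromosome 19 (chr19:37376132-37376381), Cenpf on the minus strand of chromosome 1 (chr1:189688087-189688336) and Cdc45 on the minus strand of chromosome 16 (chr16:18811973-18812222).
Kif11: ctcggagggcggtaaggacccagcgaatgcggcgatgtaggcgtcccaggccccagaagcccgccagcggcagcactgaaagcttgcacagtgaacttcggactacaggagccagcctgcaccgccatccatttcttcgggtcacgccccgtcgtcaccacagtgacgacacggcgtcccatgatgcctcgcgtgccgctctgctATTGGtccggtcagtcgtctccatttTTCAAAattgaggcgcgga
Cenpf: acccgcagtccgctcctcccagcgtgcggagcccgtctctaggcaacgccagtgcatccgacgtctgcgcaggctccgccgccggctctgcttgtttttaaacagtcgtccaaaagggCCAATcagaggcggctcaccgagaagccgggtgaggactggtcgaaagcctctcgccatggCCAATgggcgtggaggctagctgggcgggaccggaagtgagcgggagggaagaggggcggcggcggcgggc
Cdc45: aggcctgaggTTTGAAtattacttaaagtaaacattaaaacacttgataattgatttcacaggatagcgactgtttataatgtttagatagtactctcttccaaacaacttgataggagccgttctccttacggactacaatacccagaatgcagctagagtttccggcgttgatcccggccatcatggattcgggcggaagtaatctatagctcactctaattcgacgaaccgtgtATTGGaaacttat
The Kif11 window holds a CHR that begins at -19 from the start and a CCAAT box at -45, and the Cenpf window a pair of CCAAT boxes at -132 and -71. The Cdc45 window holds a CCAAT box at -13 and a CHR at -240. Of the mitotic genes, 28 had a RefSeq start within 500 bases of the start in the table. Of these, 10 (35.7%) held a CHR and 19 (67.9%) a CCAAT box, and 10 held both, against 14.0%, 36.0% and 5.12% of all 15964 promoters so matched. Over the 8753 promoters of genes tested the shares were 10.2%, 37.2% and 4.18%. Among genes called higher on day 5, 12.4% held a CHR and 42.3% a CCAAT box, and among genes called lower 8.71% and 34.5%. TTCCCGC was in 7 of 25 replication genes (28.0%), in 0 of the 28 mitotic genes, in 5.26% of all promoters and in 7.25% of those of genes tested. A match describes these letters and is not a site at which a factor was measured.

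Among 28 cyclin, CDK and CDK inhibitor genes, 16 were higher and 5 lower (8 and 3 with only the 4 libraries in the fit). Cdk1, the kinase of mitotic entry, was at 134 and 128 in DMSO against 252 and 254 in pre-p38i (0.94, standard error 0.08, adjusted p = 4.69e-08), and its partner Ccnb1 was at 64 and 76 against 122 and 134. The 3 D-type cyclins of G1, by contrast, were called lower, with Ccnd1 at 1008 and 1076 against 822 and 820, Ccnd2 at 392 and 432 against 336 and 335, and Ccnd3 at 431 and 422 against 338 and 323. The other falls were in the INK4 inhibitors that act on CDK4 and CDK6. Cdkn2a, which encodes p16 and p19 Arf, was at 328 and 328 against 198 and 218 (-0.66), and Cdkn2b at 76 and 73 against 42 and 47 (-0.73). Cdkn2c, another gene of this class, was at 18 and 20 against 37 and 39 (0.96, standard error 0.14, adjusted p = 4.30e-05), and Cdkn1b, which encodes p27, at 17 and 18 against 30 and 33. Rbl1, which encodes the pocket protein p107, was at 12 and 12 against 24 and 24 (0.94, adjusted p = 3.99e-05). E2f2, an activator of S-phase genes, was at 2 and 4 against 9 and 9, a call (1.37, adjusted p = 0.0217) that was lost with a pseudocount of 0.1, in a fit of the 4 libraries alone and without 1 of 3 libraries in turn. Ccne1 and E2f1, of entry into S phase, were not called, and the call of Ccne2 was lost in 9 of 11 alternatives.

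Of the cytokinesis and midbody genes 15 of 27 were higher and 3 lower, with a median of 0.62. Among the rises were Aurkb, a kinase of the central spindle, at 31 and 35 in DMSO against 69 and 62 in pre-p38i (0.97, standard error 0.12, adjusted p = 4.69e-06), Kif23 at 28 and 34 against 62 and 62, Plk1 at 51 and 52 against 97 and 104 and Cit, the citron kinase of the midbody, at 5 and 5 against 11 and 11. The falls were in Rock2, a kinase of the contractile ring, with 74 and 81 against 64 and 66, in the RhoA activator Arhgef2 with 52 and 57 against 43 and 49, and in Pdcd6ip (Alix), which recruits the ESCRT complex, with 152 and 152 against 130 and 128. The call of Arhgef2 was lost in 7 of 11 alternatives and that of Rock2 in 3, so that 1 fall was left without DMSO library 2, without pre-p38i library 1 and with only the 4 libraries in the fit. The remaining ESCRT genes Chmp4b, Tsg101, Vps4a and Vps4b were not called, and nor were the septins Sept7 and Sept9 or Rhoa.

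Of 7 DNA methylation genes tested, 4 were higher. Uhrf1 guides the maintenance methyltransferase to new DNA and was at 58 and 61 in DMSO against 126 and 118 in pre-p38i (1.02, standard error 0.07, adjusted p = 1.49e-09). Dnmt1, that methyltransferase, was at 68 and 73 against 117 and 114 (0.71, standard error 0.07, adjusted p = 2.26e-07). Tdg, a glycosylase of active demethylation, was at 55 and 55 against 75 and 72, but has transcribed copies of near-identical sequence. Tet2 was at 19 and 28 against 36 and 37 (adjusted p = 0.0203), a call lost without any 1 of 3 libraries.

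**Figure D2:**
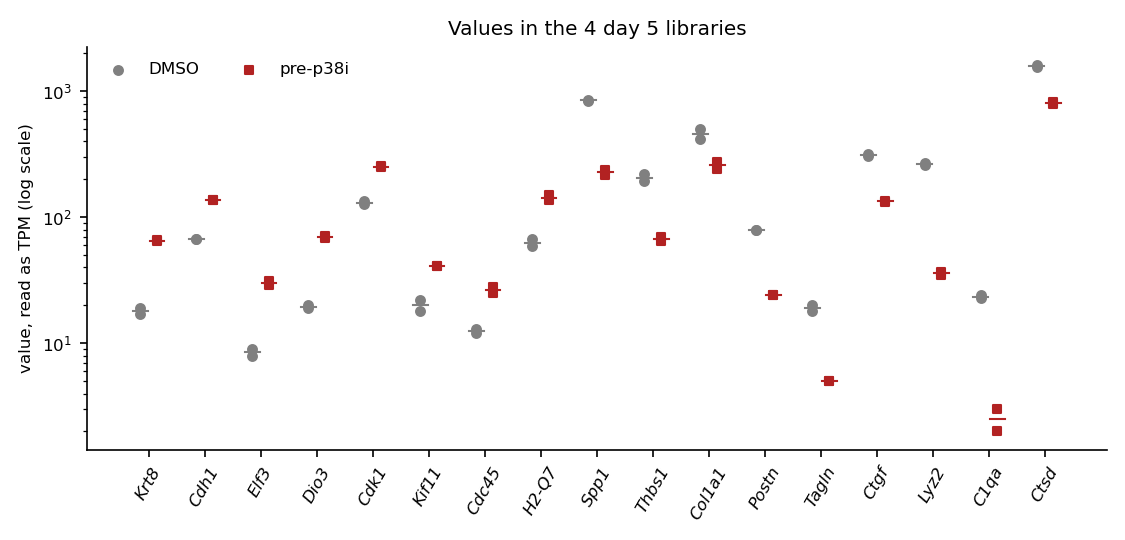
Values of 17 genes named in the text (vertical axis, read as TPM, log scale) in the 2 DMSO libraries (grey circles) and the 2 pre-p38i libraries (red squares) of day 5, with lines at the group means. All 17 are called genes, and for those among the largest rises and falls no overlap of the groups was a condition of the choice. The groups do not overlap in 53.1% of all genes tested and in 99.7% of called genes.

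Pluripotency genes were at low values in both groups, and 16 of the 38 listed were below the filter. Of the 22 tested, 7 were higher and 0 lower, and 20 had a positive fold change, with a median of 0.50. With only the 4 libraries in the fit 4 genes were called, not all of them among the 7, and Nanog, Nr5a2, Gdf3 and Mybl2 were not called. The count was also 4 with a pseudocount of 0.1, and 4 with a minimum mean of 5, which left fewer members to test. Nanog, on chromosome 6 (122707489 to 122714633), was listed at 0 and 1 in DMSO against 3 and 3 in pre-p38i (1.50, standard error 0.27, adjusted p = 0.000315). Nr5a2, a nuclear receptor that can take the place of Oct4, was at 3 and 2 against 6 and 6, a call lost with a pseudocount of 0.1 and without DMSO library 2. Sall4, a zinc finger factor of the same network, was listed at 0 in both DMSO libraries and at 1 in both pre-p38i libraries. Higher levels were seen in Mybl2, a factor of both stem cells and division, with 21 and 25 against 47 and 40 (0.89, standard error 0.13, adjusted p = 3.94e-05), in Gdf3, a ligand of stem cells, with 26 and 26 against 46 and 40, and in Tfcp2l1 with 24 and 26 against 38 and 37 (adjusted p = 0.0460). The call of Tfcp2l1 was lost without each library in turn and that of Gdf3 with a pseudocount of 0.1. The remaining call was Klf2 with 5 and 5 against 9 and 9. Zfp42, known as Rex1, was at 14 and 14 against 22 and 22 and was not called (0.62, standard error 0.29, adjusted p = 0.128). Esrrb and Dppa3 were listed at 0 in all 4 libraries, and Dppa5a at 0 in 3 of them.

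Epithelial genes gave 14 called higher and 0 lower of 34 tested, with a median of 0.73 and a range from -0.79 to 1.81. With only the 4 libraries in the fit 8 were called, and with a pseudocount of 0.1 there were 7. With a minimum mean of 5, which left fewer members to test, there were 8. Without pre-p38i library 1, which leaves a single library in its group, fewer were called higher and a fall was called. Krt8, a keratin of simple epithelia on chromosome 15 (101996711 to 102004342), was at 19 and 17 in DMSO against 65 and 66 in pre-p38i (1.81, standard error 0.22, adjusted p = 5.24e-06). Its usual partner Krt18 was at 12 and 11 against 14 and 12 and was not called. Cdh1, E-cadherin, was at 67 and 67 against 138 and 137 (1.03, standard error 0.10, adjusted p = 1.93e-07). Elf3, an epithelial transcription factor, was at 8 and 9 against 31 and 29 (1.71, standard error 0.22, adjusted p = 8.52e-06), and the adhesion gene Epcam at 39 and 34 against 104 and 93, a call lost with a pseudocount of 0.1. Tight junction genes were among those that rose. Cldn3 was at 2 and 2 against 11 and 7 (1.71, standard error 0.42, adjusted p = 0.00522), a call lost with a pseudocount of 0.1, in a fit of the 4 libraries alone and without pre-p38i library 1. Marveld3 was at 2 and 0 against 5 and 4, a call lost without DMSO library 2. Desmosome genes did not move as one, since Dsg2 was at 3 and 3 against 7 and 7 and was called, though not with a pseudocount of 0.1, while Dsp at 45 and 54 against 46 and 46 and Pkp3 at 15 and 18 against 14 and 13 were not.

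The mesenchymal list had 12 of 27 genes lower, 1 higher and a median of -0.29 (2 lower with only the 4 libraries in the fit and 7 without DMSO library 2). Vim, vimentin, was at 2530 and 2787 in DMSO against 2022 and 1960 in pre-p38i (-0.42). Twist1, a factor that represses E-cadherin, was at 141 and 128 against 108 and 110 (-0.30, standard error 0.06, adjusted p = 0.00139), while Zeb1, another such factor, was at 15 and 19 against 14 and 15 (-0.21, standard error 0.11, adjusted p = 0.178). Larger falls were in S100a4 with 215 and 209 against 128 and 122 (-0.76, adjusted p = 0.000115), in Pdgfra with 8 and 7 against 4 and 3 (a call lost without DMSO library 1 or pre-p38i library 2), and in the cadherin gene Cdh11 with 51 and 53 against 32 and 28. The single rise was in Tcf4, an E-protein, with 51 and 50 against 60 and 65, a call lost without any 1 of 3 libraries and with the replicate number as a block. Cdh11 shares near-identical sequence with other transcribed genes.

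Collagens fell in 15 of 21 genes tested and rose in 0, with a median of -0.52, against 11.3% of all genes lower. With only the 4 libraries in the fit 1 of them was called. The fibrillar genes Col1a1, with 418 and 507 in DMSO against 273 and 244 in pre-p38i (-0.83, standard error 0.08, adjusted p = 4.75e-07), Col1a2, with 1076 and 1227 against 752 and 718, and Col3a1, with 405 and 457 against 322 and 280, were among them. DMSO library 2 was the higher of its group in each of these 3 genes. Col16a1, a collagen tied to fibrils, was at 16 and 19 against 6 and 8 (-1.22, adjusted p = 1.58e-05). Col15a1, of the basement membrane zone, was at 2 and 3 against 5 and 5 and was not called.

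Other matrix genes fell further, with 25 of 31 lower, 2 higher and a median of -0.73 (16 lower with only the 4 libraries in the fit). Spp1, the secreted phosphoprotein osteopontin on chromosome 5, was at 844 and 849 in DMSO against 239 and 215 in pre-p38i (-1.90, standard error 0.08, adjusted p = 6.03e-12). Tnc, tenascin C, was at 58 and 66 against 18 and 17 (-1.77, adjusted p = 2.24e-11), and periostin, Postn, at 79 and 80 against 24 and 24 (-1.69, adjusted p = 1.65e-10). Thbs1, thrombospondin 1, was at 194 and 220 against 70 and 65 (-1.60, standard error 0.06, adjusted p = 1.20e-12). Lox, which crosslinks collagen, was at 46 and 51 against 23 and 22, and Fn1, fibronectin, was at 591 and 649 against 367 and 377. The 2 rises were both in elastic fibre genes at low values, Eln, listed at 0 and 0 against 2 and 1 and no longer called without pre-p38i library 1, and Fbn2, with 3 and 4 against 8 and 7.

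Matrix proteases and their inhibitors were lower in 17 of 23 genes and higher in 0, with a median of -0.54 (9 lower with only the 4 libraries in the fit). Mmp12, an elastase typical of macrophages, was at 28 and 32 in DMSO against 5 and 7 in pre-p38i (-2.16, standard error 0.21, adjusted p = 2.78e-07). The stromelysin Mmp10 was at 29 and 25 against 9 and 6. Plau, the urokinase that activates plasmin, was at 124 and 138 against 54 and 45 (-1.39, adjusted p = 3.07e-09), and the serpin Serpinf1 at 66 and 70 against 26 and 23 (-1.44, adjusted p = 1.73e-10). Inhibitors fell beside the proteases, as in Timp2 with 443 and 478 against 184 and 179.

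Contractile genes were lower in 8 of 16 and higher in 1, with a median of -0.25 (3 and 0 with only the 4 libraries in the fit). Tagln, which encodes the actin-binding protein SM22, was at 20 and 18 in DMSO against 5 and 5 in pre-p38i (-1.74, standard error 0.13, adjusted p = 1.08e-08), and shares 1241 nt of exon with another listed gene, whose reads cannot be told apart without strand. Myl9, a myosin light chain, was at 10 and 8 against 3 and 2. Acta2, the actin of myofibroblasts, was at 50 and 48 against 43 and 34, and the gut smooth muscle actin Actg2 went the other way with 41 and 40 against 51 and 56. Both calls were lost without any 1 of 3 libraries.

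Genes of TGF-beta signalling and of the CCN family were lower in 13 of 21 and higher in 0, with a median of -0.52. The CCN genes Ctgf and Cyr61, targets of YAP as well as of TGF-beta, were at 304 and 319 against 133 and 135 (-1.21, standard error 0.07, adjusted p = 1.60e-10) and at 140 and 138 against 76 and 80. Ctgf shares 665 nt of exon with another listed gene. Wisp1, a CCN gene downstream of Wnt, was at 14 and 15 against 6 and 5 (-1.26). Of the ligands, Tgfb1 was at 29 and 31 against 18 and 19, Tgfb3 at 18 and 20 against 9 and 10, and Inhba, a subunit of activin, at 10 and 12 against 4 and 4, the last call lost with a pseudocount of 0.1. Ltbp2, a latent TGF-beta binding protein, was at 10 and 11 against 3 and 2. The receptors Tgfbr1, at 15 and 17 against 18 and 18, and Tgfbr2, at 94 and 106 against 101 and 95, were not called, and nor was Smad3 at 21 and 23 against 20 and 20.

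In the BMP list 5 of 18 genes were lower (3 with a pseudocount of 0.1) and 1 higher. The antagonist Grem1, gremlin, was at 171 and 193 in DMSO against 44 and 44 in pre-p38i (-2.02, standard error 0.05, adjusted p = 1.47e-15), the smallest adjusted p of the genes named here. Both Bmp2, with 23 and 26 against 9 and 8 (-1.42, adjusted p = 0.000615), and Bmp6, with 13 and 14 against 6 and 6 (-1.05, adjusted p = 0.0167), were lower. Both calls were lost with a pseudocount of 0.1, and that of Bmp6 also without each library in turn. The antagonist Fst was at 70 and 69 against 50 and 48. Of the Id genes, which BMP induces, Id2 was called higher with 84 and 69 against 101 and 104, a call lost without DMSO library 2, while Id1 at 61 and 49 against 39 and 45 and Id3 at 39 and 42 against 42 and 41 were not called.

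Macrophage genes had the lowest median of the 33 lists, -1.73. Of the 27 listed, 23 were tested, and 22 of these were called lower (9 with only the 4 libraries in the fit). With a minimum mean of 5, which left fewer members to test, 11 were called lower. Lyz2, the lysozyme of myeloid cells on chromosome 10, was at 270 and 261 in DMSO against 37 and 35 in pre-p38i (-2.85, standard error 0.10, adjusted p = 4.49e-13). The complement genes C1qa and C1qc were at 24 and 23 against 2 and 3 (-2.82, adjusted p = 7.44e-06) and at 26 and 25 against 5 and 2 (-2.64, adjusted p = 6.74e-07). Adgre1, which encodes the macrophage surface protein F4/80, was at 11 and 14 against 3 and 2 (-1.95, adjusted p = 3.81e-06), Tyrobp, an adaptor of myeloid receptors, at 10 and 9 against 4 and 0, and Ms4a7 at 8 and 9 against 2 and 1. The chemokine Pf4 was at 3 and 8 against 0 and 0. Summed over the 27 genes, the value was 655 and 681 in DMSO against 207 and 192 in pre-p38i, with 1 marker at 0 in both DMSO libraries and 6 in both pre-p38i libraries.

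On day 1 the same sum was 357 and 342 in DMSO against 138 and 128 in pre-p38i. On day 3 it was 601 and 601 against 263 and 253, and on day 7 423 and 426 against 133 and 125. The MEF libraries themselves had 440 and 426 without and 281 and 282 with the inhibitor. The groups did not overlap on any of these days. Of the falls above, Spp1, Mmp12 and the lysosomal genes below are known to be high in macrophages, and the part of macrophage RNA in them was not tested.

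**Figure D3:**
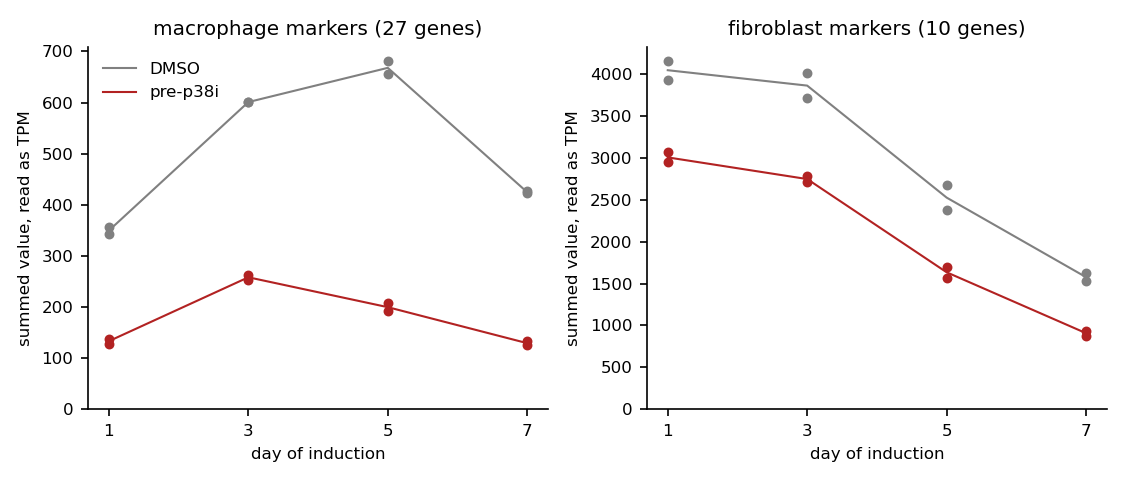
Summed values (vertical axes, read as TPM, from 0) of 27 macrophage genes (left) and 10 fibroblast markers (right) in each library of DMSO (grey) and pre-p38i (red) by day of induction, with lines through the group means. On day 5 the macrophage sum was 655 and 681 against 207 and 192, and both sums were lower in pre-p38i on each of the 4 days. Most of the fibroblast sum on day 5 came from Col1a1, Col1a2 and Col3a1.

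Lysosome genes were lower in 20 of 26 and higher in 0, with a median of -0.37 (17 with only the 4 libraries in the fit). Ctsd, a cathepsin protease, was at 1564 and 1609 in DMSO against 819 and 799 in pre-p38i (-0.97, standard error 0.04, adjusted p = 8.42e-13), Ctsl at 1138 and 1181 against 541 and 534 (-1.11, adjusted p = 6.13e-12) and Ctsk, the collagenase of osteoclasts, at 211 and 215 against 107 and 105 (adjusted p = 8.04e-07). Ctsd shares 808 nt of exon with another listed gene. Gpnmb, a membrane glycoprotein of phagocytes, was at 72 and 82 against 30 and 32. Tfeb and Tfe3, the factors that drive lysosome genes, were at 11 and 11 against 12 and 11 and at 61 and 73 against 76 and 70 and were not called.

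MHC class I presentation genes were higher in 14 of 20 and lower in 0, with a median of 0.50 (6 with only the 4 libraries in the fit). The heavy chain H2-K1 was at 1591 and 1383 in DMSO against 2250 and 2356 in pre-p38i, and B2m, the light chain, at 6056 and 5699 against 6312 and 6781, a call lost without DMSO library 2 or pre-p38i library 2. The immunoproteasome subunit Psmb9 was at 77 and 64 against 131 and 159 (1.03, standard error 0.22, adjusted p = 0.00182) and the peptide transporter Tap1 at 179 and 182 against 255 and 255 (adjusted p = 0.0408). They share 212 nt of exon, and the call of Tap1 was lost without each library in turn. H2-Q7 was at 67 and 59 against 150 and 137 (1.18, adjusted p = 0.000124), H2-Q6 at 47 and 35 against 87 and 91 and H2-Q4 at 274 and 268 against 417 and 443. These Q genes have near-identical copies with values of 1 or more, so their own levels are uncertain.

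Of other interferon targets, 5.26% of interferon-stimulated genes and 15.4% of interferon-inducible GTPases were called higher, against 14.3% of all genes. Of 38 interferon-stimulated genes 2 were higher and 0 lower, with a median of 0.11, namely Oas1a at 102 and 96 in DMSO against 131 and 134 in pre-p38i (0.42, adjusted p = 0.0185) and Oas3 at 26 and 25 against 34 and 35. Isg15 was at 438 and 441 against 435 and 510, and Ifit1 at 109 and 113 against 86 and 106. Of 13 interferon-inducible GTPases 2 were higher, Gbp5 at 6 and 6 against 9 and 13 and Tgtp2, which has near-identical copies, at 180 and 128 against 260 and 303. The fold change was positive in 12 of the 13, with a median of 0.31. The calls of Oas1a, Oas3, Gbp5 and Tgtp2 were each lost with a pseudocount of 0.1 and without any 1 of 3 or 4 libraries.

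Chemokines and inflammatory cytokines had 8 of 19 genes lower and 1 higher (3 and 0 with only the 4 libraries in the fit), and 9 of the 28 listed were below the filter, among them Il6, Il1a, Il1b and Tnf. Ptgs2, the inducible cyclooxygenase, was at 42 and 45 in DMSO against 19 and 23 in pre-p38i (-1.02, standard error 0.10, adjusted p = 2.12e-07), and Ptges, the next enzyme towards prostaglandin E, at 29 and 29 against 14 and 14. Ccl2, which draws monocytes, was at 726 and 677 against 491 and 518. Cxcl12 was at 8 and 10 against 5 and 2 (-1.23). Cxcl2, at 7 and 7 against 3 and 1 (adjusted p = 0.0370), lost its call in 7 of 11 alternatives. The rise was in Ccl11, eotaxin, with 7 and 5 against 19 and 13 (1.27, adjusted p = 0.00103).

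Few genes of the p38 pathway were called. Mapk14, the main p38 isoform, was at 41 and 39 in DMSO against 42 and 44 in pre-p38i (0.10, standard error 0.07, adjusted p = 0.345), and Mapk11, Mapk12 and Mapk13 were not called (adjusted p = 0.250, 1.0 and 0.988). Of 18 pathway genes 1 was higher, the translation kinase Mknk2 with 118 and 126 against 153 and 144 (0.28, adjusted p = 0.00262). The other call was Zfp36, an mRNA decay factor downstream of p38, with 15 and 15 against 9 and 13, lost in 6 of 11 alternatives. AP-1 and immediate early genes were lower in 5 of 16 and higher in 0, and 2 were lower without DMSO library 2 and with only the 4 libraries in the fit. Fosl1, the AP-1 member Fra-1, was at 37 and 43 against 22 and 24 (-0.77, standard error 0.10, adjusted p = 9.91e-06) and shares 1163 nt of exon with Ccdc85b. Ier3 was at 58 and 63 against 38 and 35 (-0.71), and Fos and Jun were not called at 9 and 10 against 8 and 10 and at 80 and 87 against 76 and 75. Among 19 MAPK feedback genes 5 were lower and 1 higher (2 and 0 with only the 4 libraries in the fit), led by the phosphatase Dusp14 with 292 and 286 against 159 and 163 (-0.84, adjusted p = 9.27e-09) and Phlda1 with 95 and 91 against 58 and 54 (-0.72, adjusted p = 1.72e-06). The ERK phosphatase Dusp6 was at 76 and 76 against 79 and 86, and the Sprouty genes were not called.

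Of 34 genes of p53 and its targets 13 were lower and 1 higher, with a median of -0.17, and 8 were lower without pre-p38i library 2 and with only the 4 libraries in the fit. Trp53, which encodes p53, was at 184 and 199 in DMSO against 217 and 207 in pre-p38i (0.15, standard error 0.07, adjusted p = 0.112). The largest fall was in Pmaip1, the apoptosis gene Noxa, with 20 and 23 against 12 and 12 (-0.79, adjusted p = 1.44e-05). Perp, a gene of both apoptosis and desmosomes, was at 374 and 384 against 240 and 257 (-0.61, adjusted p = 6.51e-06). Cdkn1a, which encodes the CDK inhibitor p21, was at 1027 and 1033 against 825 and 822, and Mdm2, the ligase that degrades p53, at 187 and 187 against 136 and 133. The single rise was in Ckap2, a spindle protein, with 73 and 73 against 100 and 106. Bax, Bbc3 and Gdf15 were not called.

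Of the ATF4 stress response genes 4 of 19 were higher and 3 lower. With only the 4 libraries in the fit these were 1 and 1, without DMSO library 1 there were 2 higher, and without DMSO library 2 or pre-p38i library 1 there was 1 lower. Nupr1, a stress-induced nuclear protein, was at 331 and 339 in DMSO against 146 and 173 in pre-p38i (-1.07, standard error 0.10, adjusted p = 1.58e-07), and Ddit3, the factor CHOP, at 38 and 40 against 26 and 31, a call lost without DMSO library 2 or pre-p38i library 1. Ddit4, an inhibitor of mTOR complex 1, was at 98 and 97 against 158 and 126 (0.53), and the serine synthesis genes Phgdh and Psat1 were at 40 and 43 against 50 and 49, a call lost without DMSO library 1, and at 114 and 108 against 139 and 133. Of 3 metallothionein genes and the zinc exporter Slc30a1, 1 was called, Mt2 with 1356 and 1319 against 1628 and 1607.

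In the imprinted Dlk1-Dio3 locus, 2 of 6 genes tested were higher. Dio3, the deiodinase that inactivates thyroid hormone, on chromosome 12, was at 20 and 19 in DMSO against 71 and 69 in pre-p38i (1.79, standard error 0.25, adjusted p = 2.05e-05). The noncoding RNA Rian was at 124 and 125 against 162 and 139 (0.27, adjusted p = 0.00990), a call lost without DMSO library 1 or pre-p38i library 1. Meg3, at 22 and 25 against 39 and 38, was not called, and Dlk1 stood at 3 and 4 in each group. Of 18 other imprinted genes 3 were higher and 7 lower (3 lower with only the 4 libraries in the fit). Peg10, of retroviral origin, was at 7 and 8 against 16 and 15 (0.96, adjusted p = 2.23e-07) and Nnat, neuronatin, at 74 and 69 against 131 and 137 (0.90, adjusted p = 9.83e-08). Igf2r, the receptor that clears IGF2, was at 103 and 114 against 67 and 68 (-0.68, adjusted p = 5.72e-08).

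Epidermal genes gave 4 higher and 2 lower of 20 tested, and 13 more were below the filter. With only the 4 libraries in the fit these were 2 and 0, and 2 were higher with a pseudocount of 0.1. With a minimum mean of 5, which left fewer members to test, 2 were higher. Krt13, a keratin of stratified mucosa, was at 24 and 29 in DMSO against 68 and 64 in pre-p38i (1.29, adjusted p = 0.00107), a call lost with a pseudocount of 0.1, and S100a9 was at 2 and 0 against 7 and 8. Crct1, of the cornified envelope region, was at 19 and 13 against 7 and 3 (-1.56, adjusted p = 0.00170), a call lost without pre-p38i library 2. Il1rn, the interleukin 1 receptor antagonist, was at 11 and 14 against 3 and 6 (-1.34).

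Metabolic lists had small medians, beside 0.04 for all genes. Called higher were 28.1% of respiratory chain, 31.8% of cholesterol and 20.0% of glycolysis and hypoxia genes, against 14.3% of all genes. Nuclear genes of the respiratory chain were higher in 9 of 32 and lower in 0, with a median of 0.10, led by the complex I subunit Ndufb8 with 247 and 237 in DMSO against 297 and 311 in pre-p38i (0.33, adjusted p = 0.000444), and 0 of them were called with only the 4 libraries in the fit and 4 without DMSO library 2 or pre-p38i library 2. Cholesterol synthesis genes were higher in 7 of 22 and lower in 0, with a median of 0.13, and 1 of them was called with only the 4 libraries in the fit. Without DMSO library 1 or pre-p38i library 2 there were 4, without pre-p38i library 1 there were 3, and with quantile normalization 4. Of 25 glycolysis and hypoxia genes 5 were higher and 3 lower. The 5 became 2 without DMSO library 1, without pre-p38i library 1 and with only the 4 libraries in the fit, and 3 without either of the other libraries, with no filter, with quantile normalization and with the replicate number as a block. The 3 became 0 with only the 4 libraries in the fit. The call of Slc2a1 was lost in 10 of 11 alternatives and that of Slc16a3 in 7. The falls were largest in the collagen prolyl hydroxylase genes P4ha2, with 22 and 19 against 11 and 7 (-1.13, adjusted p = 5.40e-06), and P4ha1, with 48 and 47 against 38 and 35. Gapdh was at 3745 and 3822 against 3807 and 3866.

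Among the 12 largest rises in genes whose mean reached 5 were some of no list above. Calml3, a calmodulin-like protein of epithelia on chromosome 13, was at 2 and 1 in DMSO against 12 and 13 in pre-p38i (2.46, standard error 0.35, adjusted p = 2.75e-05). Ppp1r14d, a phosphatase inhibitor, was at 2 and 1 against 8 and 10, and Plet1, a surface protein of epithelial progenitors, at 3 and 1 against 10 and 8. Ptn, the growth factor pleiotrophin, was at 33 and 32 against 114 and 94 (1.64, standard error 0.17, adjusted p = 6.87e-07). Nkd1, a feedback inhibitor of Wnt signalling, was at 8 and 7 against 23 and 27 (1.61, adjusted p = 0.00186), a call lost with a pseudocount of 0.1. Cdkn3, a phosphatase of CDKs, was at 4 and 1 against 7 and 11, Plac8 at 7 and 4 against 12 and 25, and the interferon-induced Ifi27l2a at 37 and 47 against 126 and 137 (1.63, adjusted p = 0.0288). Calls were lost without at least 1 library in Plet1, Cdkn3 and Plac8, and without each of the 4 in Ifi27l2a.

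Among the 12 largest falls, the proliferin genes Prl2c2 and Prl2c3, secreted relatives of prolactin, were at 180 and 179 against 51 and 38 (adjusted p = 2.60e-05) and at 70 and 72 against 17 and 22 (-1.82, standard error 0.20, adjusted p = 1.88e-06). They are near-identical to each other and to Prl2c5, so how reads divide between them is uncertain. Ctsh, a cathepsin, was at 17 and 10 against 4 and 2 (-1.86, adjusted p = 7.76e-06).

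The comparisons on the other days share no library with day 5. Of the genes called higher on day 5, 1027 (54.3%) were also called higher on day 3, where 13.8% of all genes were, and these are 56.4% of that day's 1820 genes. Of those called lower, 665 (44.5%) were also lower on day 3, where 6.87% of all genes were, or 73.2% of 909. On day 7, where 15.4% of all genes were higher and 14.5% lower, the shared numbers were 1138 (60.1% of day 5, 55.9% of day 7) and 1118 (74.8% and 58.3%). Genes called in opposite directions were few, with 3 and 10 for day 3 and 13 and 6 for day 7.

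The difference between days was tested for each gene as well. Against day 1, 1556 genes (11.8%) differed in their response to pretreatment, 847 with a higher and 709 with a lower log2 fold change on day 5. Among them were 29 of 32 mitotic, 18 of 33 replication and 9 of 34 epithelial genes, all higher on day 5, and 15 of 31 matrix and 12 of 23 protease genes that were lower. On day 1 the median of the mitotic list was -0.01 and 3 of its genes were called higher, against 5.40% of all genes. Macrophage genes were lower in 14 of 23 on that day, with a median of -1.17, against 6.24% of all genes.

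Against day 3, 141 genes (1.07%) differed, 35 higher and 106 lower on day 5. With only the groups compared in the limma fit 0 genes differed, and 1752 had an unadjusted p under 0.05. Of the 106, 5 were MHC class I genes, 5 matrix proteases or inhibitors and 4 matrix proteins. The interferon-stimulated genes, the interferon-inducible GTPases, the chemokines and the BMP genes had 3 each, and the TGF-beta and CCN, AP-1 and MAPK feedback genes 2 each. On day 3, 29 of 38 interferon-stimulated genes, 13 of 13 GTPases and 20 of 20 MHC class I genes were higher, with medians of 0.70, 1.50 and 1.12, and on day 5 the medians were 0.11, 0.31 and 0.50. Of the macrophage genes 1 differed and of the mitotic genes 1. The number of 141 depends on single libraries, and fell to between 61 and 92 without DMSO library 2 or either pre-p38i library of day 5 or either pre-p38i library of day 3.

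Against day 7, 238 genes (1.80%) differed, 189 with a higher and 49 with a lower log2 fold change on day 5. With only the groups compared in the fit 52 differed. The 189 include 7 matrix, 6 protease, 5 TGF-beta or CCN and 3 contractile genes, lists whose medians were further from 0 on day 7 than on day 5, as in the matrix list with -0.84 against -0.73 and the contractile list with -0.44 against -0.25. The 49 include 7 of 25 glycolysis and hypoxia genes. On day 5 Slc16a3, the lactate exporter MCT4, was listed at 0 and 0 in DMSO against 1 and 1 in pre-p38i, and on day 7 at 1 and 1 against 39 and 24. Without 1 of 5 libraries in turn (both pre-p38i libraries of day 5, both DMSO libraries of day 7 and pre-p38i library 2 of day 7) the 238 genes became between 120 and 157. Ndufa4l2, a hypoxia-induced mitochondrial protein, was at 0 in all 4 libraries of day 5 and at 1 and 0 against 47 and 27 on day 7.

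**Figure D4:**
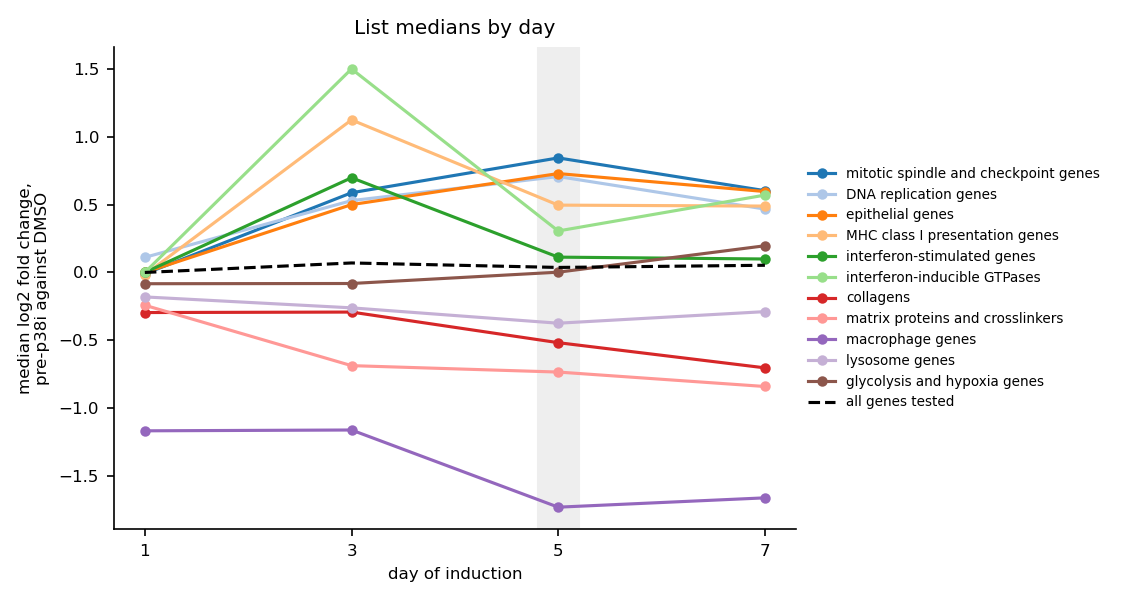
Median log2 fold change of pre-p38i against DMSO (vertical axis) over the tested genes of 11 lists on days 1, 3, 5 and 7 of induction (horizontal axis), with the median of all genes dashed and day 5 shaded. The 2 interferon lists and MHC class I peak on day 3, at 0.70, 1.50 and 1.12, mitotic genes are highest on day 5 at 0.84, and macrophage genes lie at or under -1.16 on each day.

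The normal course of induction was taken from DMSO day 7 against DMSO day 3, libraries that the day 5 comparison does not use. In that course 3098 genes (23.4%) were called higher and 2599 (19.6%) lower. Of the 1893 genes higher in pre-p38i on day 5, 1360 (71.8%) also rose in the course, which is 43.9% of its rises, and 56 (2.96%) fell. Of the 1494 lower genes, 1044 (69.9%, 40.2% of the falls of the course) also fell and 48 (3.21%) rose. In the lists, 31 of 33 replication genes, 29 of 32 mitotic, 26 of 34 epithelial and 17 of 22 pluripotency genes rose in the course, and 23 of 31 matrix, 15 of 21 collagen and 21 of 26 lysosome genes fell. Macrophage genes were lower in 8 of 23 in the course and higher in 1. List members that went against it were S100a9, Nnat, Krt6a, Actg2, Tcf4 and Psmb10, higher on day 5 and falling in the course, and Cxcl2, Cxcl16, Ccl2, Adamts5, Adamts1, Mfap5, Laptm5 and Slc7a11, lower on day 5 and rising in it. S100a9 had log2 fold changes of 2.29 on day 5 and -1.09 in the course, and Adamts5, an aggrecanase, -1.20 and 0.54.

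**Figure D5:**
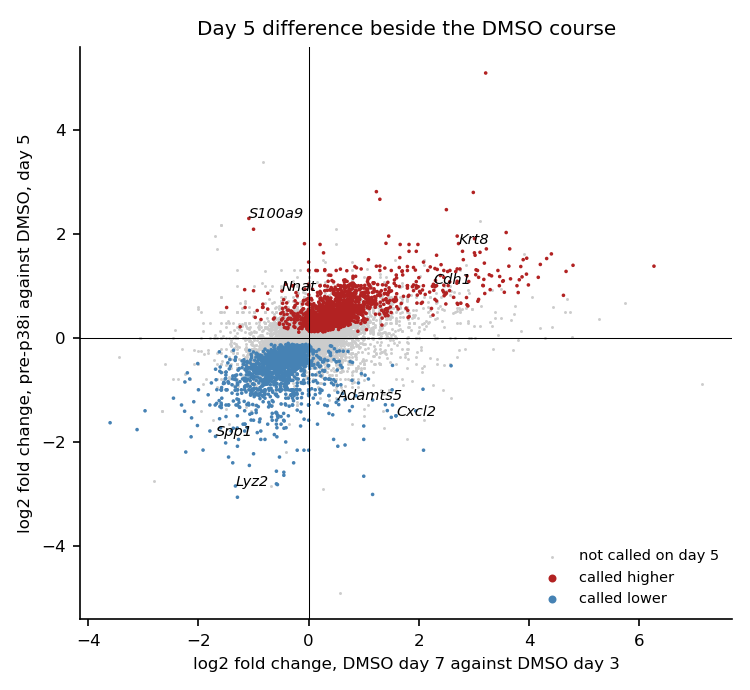
Log2 fold change of each of 13230 genes on day 5, pre-p38i against DMSO (vertical axis), beside that of DMSO day 7 against DMSO day 3 (horizontal axis), with genes called on day 5 in red (higher) and blue (lower). Most called genes lie in the upper right and lower left, 1360 and 1044 of them called in both comparisons, and 56 and 48 were called in opposite directions.

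The inhibitor in MEFs called fewer genes. In p38i-treated against untreated MEFs, 1287 genes (9.73%) were higher and 1078 (8.15%) lower. Of the genes called higher on day 5, 325 (17.2%, or 25.3% of the rises in MEFs) were higher there and 118 (6.23%) lower, and of those called lower 358 (24.0%, or 33.2% of the falls in MEFs) were lower there and 199 (13.3%) higher. The lists differed in this. Collagens were lower in 15 of 21 in the MEFs, with a median of -0.63, macrophage genes in 11 of 23, and 18 of 32 mitotic genes were higher with a median of 0.29. Lysosome genes were higher in 9 of 26 and lower in 2, with a median of 0.10 against -0.37 on day 5.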

How the data were processed

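RNA was sequenced in 28 libraries of 14 groups with 2 replicates each, and groups were taken from the sample labels. The authors deposited 1 table of 50600 genes whose values are given here as a score, since no header names the unit: whole numbers that sum to between 991287 and 992537 per library, read as TPM rounded down. The submitters' processing notes name Bowtie2 2.2.5, RSEM 1.3.0, bcl2fastq and the builds mm10 and hg38. The labels and the study's methods differ on the RNA extraction and the library kit, neither of which is said to keep strand. TPM keeps no depth, so no counting interval can be given. Of the gene IDs 99.6% are in GENCODE M21, and 27 names that had been turned into dates were followed by ID.

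Values were taken to log2(value + 1), and genes whose mean reached 1 across all libraries were fitted with limma 3.58.1 in R 4.3.3, with a mean for each group and moderated standard errors. Two-sided p-values were adjusted by the Benjamini-Hochberg method over all genes tested. The fit was run on simulated data with planted changes and independent normal noise drawn from its own variances. That run checks the code only, since shared batches and technical replicates were not simulated. Alternatives changed the pseudocount (0.1), the filter (none, or a mean of 5), the scaling (quantile), the fold asked for (2-fold) and the libraries (only the groups compared, or each left out in turn), or added a replicate block. Rescaling without mitochondrial genes was chosen after seeing the data. Named genes are the 12 largest rises and falls whose mean reached 5, with groups that do not overlap, up to 4 called members per list, genes the study measured, and the 4 largest differences from day 7 in each direction. Other genes in the text were chosen after their values were seen. Near-identical copies were sought with BLAST 2.17.0+ at 95% identity over 200 nt. Of the named genes called, 11 had such a stretch in common with an expressed gene and 10 shared 200 nt or more of exon with an expressed gene. A stretch need not mark a copy of the whole gene, as for Tyms, where the genes found were Map3k2, Wdr59, Cd200r3 and Olfr1247. Not marked above are the copy of Oas1a and the shared exons of Cdc45, Bmp6, Mt2 and Tdg. All members, lists and the rule were chosen with earlier results of these data known. Some list members are not reported here.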

Additional observations from a re-analysis of the deposited data

Results flagged for a closer look

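The response to pretreatment differed between day 5 and another day, by limma's test of the difference itself, in 1556 genes against day 1, in 141 against day 3 and in 238 against day 7. The named differences from day 7 follow, as the log2 fold change on day 5 minus that on day 7. Calml3 had a difference of 2.00 (standard error 0.49, adjusted p = 0.0399), with 7 and 7 in DMSO and 10 and 10 in pre-p38i on day 7. Cd209f, a lectin gene with a near-identical transcribed copy, differed by 1.78 (adjusted p = 0.0126), and was at 10 and 8 against 11 and 9 on day 5 and at 46 and 39 against 11 and 15 on day 7. Cyp26a1, which breaks down retinoic acid, differed by 1.77 (adjusted p = 0.00697), with 27 and 21 against 24 and 22 on day 5 and 29 and 25 against 6 and 8 on day 7. Pemt, an enzyme of phosphatidylcholine synthesis, differed by 1.69 (adjusted p = 0.0184), with 4 and 4 against 10 and 11 on day 5 and 10 and 9 against 6 and 7 on day 7.

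In the other direction, Ndufa4l2 had a difference of -4.70 (adjusted p = 0.000784), with all 4 libraries of day 5 at 0, and Slc16a3 one of -2.98 (adjusted p = 0.00290). In both genes the pre-p38i libraries of day 7 were 47 and 27 and 39 and 24, and library 1 was the higher. Crxos differed by -1.97 (adjusted p = 0.0108), with 4 and 4 against 2 and 3 on day 5 and 5 and 4 against 10 and 19 on day 7. Bnip3, a hypoxia-induced gene of mitophagy, differed by -1.46 (adjusted p = 0.00738), with 21 and 19 against 14 and 22 on day 5 and 18 and 19 against 53 and 41 on day 7.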

How the results depend on the processing

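A call was not counted as lost where an alternative, such as the minimum mean of 5, removed the gene before the test. Counted so, of the 134 named genes called, 63 lost their call in none of the 11 alternatives. No value changed sign while called. For 96 of the genes, no call was lost outside the fit of only the groups compared. That fit, which has fewer samples, called 1254 genes (674 higher, 580 lower), differences of 877, 0 and 52 genes against days 1, 3 and 7 (limma, 1752 genes with an unadjusted p under 0.05 for day 3), and 709, 120, 235 and 623 genes in the same direction as the course, MEFs, day 3 and day 7, where the values with all libraries were 2404, 683, 1692 and 2256. By construction, a 2-fold minimum left 448 genes (176 and 272), differences of 309, 28 and 43, and 276, 78, 215 and 276 shared genes. Without a filter, more genes were tested and 238 and 389 differed from days 3 and 7. Leaving out each library in turn gave 2360 to 2584 genes, 1203 to 1437 higher and 1010 to 1301 lower, and 61 to 140 and 120 to 212 differences from days 3 and 7. With the replicate number as a block within time points 3139 genes were called, 5 named calls were lost, and same-numbered libraries of 2 groups had correlations between -0.0838 and 0.0874 over 91 pairs, so the numbers are not known to pair them. Quantile normalization called 1765 higher and 1864 lower. The list medians of p38 pathway, other imprinted, glycolysis and hypoxia, and metallothionein genes, all near 0, changed sign in some alternatives, and the cause was not tested. Without depth, low values carry an unknown counting error.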

Other observations

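Gene families outside the lists were looked at after the values were seen, and are given as counts with no test of the family, beside 14.3% of all genes called higher and 11.3% lower. RNA processing genes were called higher, with 19 of 20 hnRNP genes (median log2 fold change 0.38), 8 of 10 SR splicing factor genes (0.44) and 9 of 12 snRNP protein genes (0.36), and 0 lower in each. Srsf7 had the largest change of the SR genes, 0.74. Nucleoporin genes were higher in 13 of 19 (0.35) and tubulin genes in 9 of 13 (0.41), led by Tuba1b with 0.73. Of 9 HMG chromatin protein genes 6 were higher, with Hmgb2 at 1.10 and Hmgn2 at 1.05, and 1 lower, Hmga2 at -0.30. Polycomb genes were higher in 7 of 24, Ezh2 by 0.83.

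Proteasome subunit genes were higher in 22 of 42, with a median of 0.17, and cytosolic ribosomal protein genes in 12 of 79, a share near that of all genes, with a median of 0.08. Integrin genes were lower in 9 of 17 and higher in 0, among them Itgav at -0.57. Genes of the mitochondrial genome were lower in 9 of 15 and higher in 0, such as mt-Atp6 at -0.58. Their median was -0.33 and their range ran from -4.91 to 0.20. Of 11 Wnt feedback and target genes 6 were higher and 0 lower, namely Nkd1 (1.61), Rnf43 (1.29), Lef1 (0.97), Notum (0.77), Axin2 (0.73) and Apcdd1 (0.32). Wisp1, downstream of Wnt but counted above with the CCN genes, is outside this set and was lower (-1.26). Hox cluster genes were lower in 2 of 26, Hoxb9 and Hoxc8, and higher in 0.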
